A study of Saccharomyces cerevisiae with 4 samples.

Results

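Upper glycolysis turns glucose into triose phosphate, and 8 genes of budding yeast encode its enzymes from the first phosphorylation of the sugar to the interconversion of the triose phosphates. The genes are HXK1, HXK2, GLK1, PGI1, PFK1, PFK2, FBA1 and TPI1. They were chosen by name for their place in the pathway, with earlier results of these data known. All 8 were found among the 6477 genes of the RefSeq table of the R64 assembly. The data are chromatin immunoprecipitations with the M2 antibody against the FLAG tag, from an untagged strain and from a strain in which the tag is on Acs2, an acetyl-CoA synthetase found in the nucleus and the cytosol. Both strains were grown at 28 °C in rich medium (YPD, with 2% glucose), harvested at an OD600 between 0.7 and 1.0, and fixed with 1% formaldehyde. Input chromatin without antibody was sequenced from each strain too, so the 4 libraries form 4 groups of 1 library; there are no replicates, and the strains could not be compared by a test. Each immunoprecipitate has its own list of peaks, 912 for Acs2-FLAG and 34 for the untagged strain. No peak of the Acs2-FLAG list met the ACS2 gene itself, and peak lists offer no check of which strain carried the tag.

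In yeast, glucose is phosphorylated by 3 isoenzymes, the hexokinases Hxk1 and Hxk2 and the glucokinase Glk1. Hxk2 is known as the main one in cells growing on glucose, while HXK1 and GLK1 are known to be expressed more strongly when glucose is scarce. Pgi1 then isomerises glucose 6-phosphate to fructose 6-phosphate. Phosphofructokinase, built from the subunits Pfk1 and Pfk2, adds the next phosphate at the step known for its control by ATP and AMP. The aldolase Fba1 splits the product into triose phosphates, and Tpi1 interconverts these. Several of these enzymes are among the most abundant proteins of fermenting yeast, and their genes are transcribed at high rates.

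All 8 genes had exactly 1 Acs2-FLAG peak between a point 500 bp upstream of the annotated start and the annotated end. Over the whole table, 24.9% of the genes and 20.6% of the protein-coding genes met a peak in this way. In the untagged list 1 of the 8 genes, FBA1, had a peak, where 0.714% of protein-coding genes had one. The fold enrichment is the authors' own ratio at the summit of a peak, the highest point of the signal, between fragments and the local background. The file headers do not state which library served as background, and the folds are read here as immunoprecipitate over input. The fragment counts and backgrounds behind the folds were recovered from the deposited fold and p-value. The 95% intervals are exact Poisson intervals of the fragment count with the background held fixed, and cover counting error only.

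**Figure D1:**
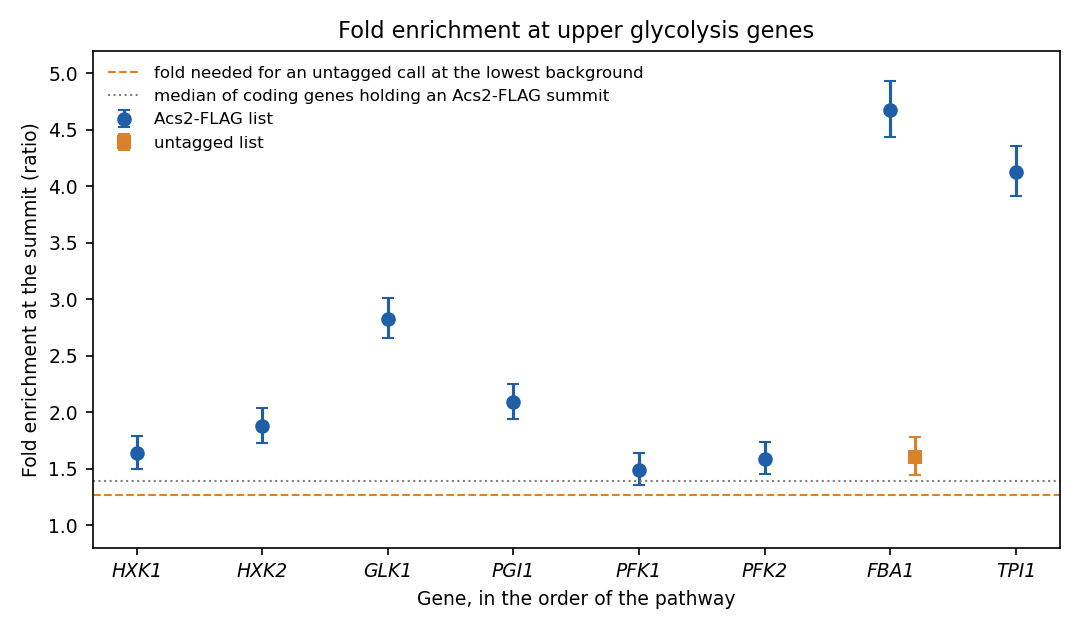
Fold enrichment at the peak summit (ratio, vertical axis) for each gene in the order of the pathway, from 1 library per strain; circles are the Acs2-FLAG list, the square is the untagged list, bars are exact 95% Poisson intervals of the fragment count, and the lines mark the untagged calling limit of 1.26 and the median of 1.39 of coding genes holding an Acs2-FLAG summit. FBA1 and TPI1 stand above 4, GLK1 lies at 2.83, the other genes lie between 1.49 and 2.09, and the untagged list has a value at FBA1 alone.

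At the hexose kinase step the 3 genes had different folds in the Acs2-FLAG list. HXK1 (YFR053C, chromosome VI, 253592 to 255049, minus strand) had 478 fragments over a background of 291.1, a fold of 1.64 (1.50 to 1.79). HXK2 (YGL253W, chromosome VII, 23935 to 25395, plus strand) had 549 over 291.8, a fold of 1.88 (1.72 to 2.04). GLK1 (YCL040W, chromosome III, 50838 to 52340, plus strand) had 988 over 348.6, a fold of 2.83 (2.66 to 3.01). The glucokinase gene thus stood above both hexokinase genes. Its fold was 1.73 times that of HXK1 (1.55 to 1.93) and 1.51 times that of HXK2 (1.36 to 1.67).

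The hexokinase genes lay close together, with HXK2 at 1.15 times the fold of HXK1 (1.01 to 1.30). This interval no longer excluded equal folds once the backgrounds were also allowed to vary as Poisson counts (0.93 to 1.40). HXK1 and HXK2 are paralogs of similar sequence, so some reads could have been placed at either gene, and how the authors treated such reads is not given in the sources used here. None of the 3 genes had a peak in the untagged list.

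PGI1 (YBR196C, chromosome II, 612236 to 613900, minus strand), for the isomerase, had 702 fragments over a background of 335.1. Its fold was 2.09 (1.94 to 2.25), between those of HXK2 and GLK1. The ratio of PGI1 to HXK2 was 1.11 (0.99 to 1.25), so these neighbours in the order could not be told apart by counting error, while GLK1 was 1.35 times as high as PGI1 (1.23 to 1.49).

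The phosphofructokinase subunit genes had the lowest folds of the pathway segment. PFK1 (YGR240C, chromosome VII, 970771 to 973734, minus strand), for the alpha subunit, had 459 fragments over 307.1, a fold of 1.49 (1.36 to 1.64). PFK2 (YMR205C, chromosome XIII, 671887 to 674766, minus strand), for the beta subunit, had 489 over 307.1, a fold of 1.59 (1.45 to 1.74). The ratio of PFK2 to PFK1 was 1.07 (0.94 to 1.21), so a difference in fold was not detectable at this depth. The ratio of HXK1, the next gene up in the order, to PFK2 was 1.03 (0.91 to 1.17).

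FBA1 and TPI1, at the triose end, had the highest folds. FBA1 (YKL060C, chromosome XI, 326408 to 327487, minus strand), the gene for aldolase, had 1417 fragments over 302.0, a fold of 4.68 (4.44 to 4.93), and ranked 3 among all 912 Acs2-FLAG peaks. TPI1 (YDR050C, chromosome IV, 555726 to 556472, minus strand), the gene for triose phosphate isomerase, had 1397 fragments over 337.5, a fold of 4.13 (3.92 to 4.35), and ranked 19. The counts of these genes were nearly the same, and the ratio of 1.13 between their folds (1.05 to 1.22) came mostly from the lower background at FBA1. With varying backgrounds the interval of this ratio reached below 1 (0.95 to 1.35). TPI1 in turn was 1.46 times as high as GLK1 (1.34 to 1.59).

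From highest to lowest, the order of folds was therefore FBA1, TPI1, GLK1, PGI1, HXK2, HXK1, PFK2 and PFK1. The other ranks among the 912 peaks were 238 for GLK1, 335 for PGI1, 370 for HXK2, 444 for HXK1, 471 for PFK2 and 522 for PFK1, and many peaks above these lie at tRNA genes. None of the peaks at the 8 genes met a tRNA gene. The background at the summits ran from 291.1 to 348.6 fragments, or 1.00 to 1.20 times the lowest background of the library. It was highest at GLK1, TPI1 and PGI1, and at FBA1, with the highest fold, it was 302.0, below the median of 307.1 over the 8 genes.

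Among the 429 protein-coding genes that held the summit of their strongest Acs2-FLAG peak, the median fold was 1.39, with quartiles of 1.28 and 1.65. All 8 upper glycolysis genes belonged to this set, which takes in 7.13% of protein-coding genes and 34.7% of those with a peak in their region. The folds of all 8 genes lay above its median, and 5 lay above its upper quartile. Over all 1238 protein-coding genes with a peak in their region, wherever its summit lay, the median fold was higher, 1.644. HXK1 (1.640), PFK2 and PFK1 lay below that median. FBA1 ranked 3 of the 429, TPI1 6, GLK1 22, PGI1 49, HXK2 66, HXK1 113, PFK2 126 and PFK1 156. The median of the 8 folds was 1.98, and 1.88 without FBA1.

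The peaks were broad and covered the genes from end to end. All 8 annotated genes lay wholly inside their Acs2-FLAG peak, and each peak crossed both the start and the end of its gene. Of the 4405 protein-coding genes at least as long as TPI1, the shortest of the 8 at 747 bp, 2.13% lay wholly inside their strongest peak. Among those of them with a peak in the region the share was 11.5%, and among the 293 that also held the summit it was 29.0%. The width of a called peak depends on the calling threshold as well as on the signal, and the part of peak height in these shares was not tested. Most of the coding genes nearest to the 8 in fold, named below, also lay wholly inside their peak, though some are shorter than 747 bp.

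**Figure D2:**
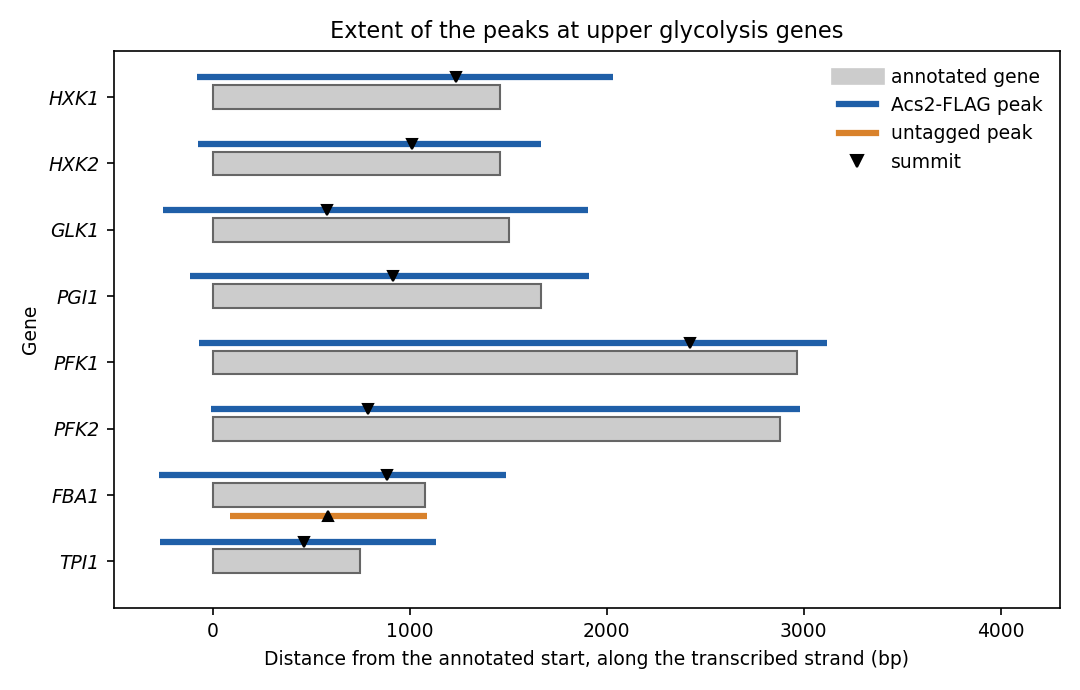
Extent of each peak (lines) and position of its summit (triangles) along the annotated gene (grey bars), as distance from the annotated start in bp along the transcribed strand (horizontal axis), 1 row per gene and 1 library per strain. The blue Acs2-FLAG peaks reach past both ends of all 8 genes, and the orange untagged peak at FBA1 starts 88 bp inside the gene.

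The longest genes, PFK1 and PFK2, had the widest peaks, but width did not follow gene length throughout. The peak at PFK1 was 3188 bp wide on a gene of 2964 bp, and that at PFK2 was 2991 bp wide on 2880 bp. At GLK1 the width was 2159 bp on 1503 bp, at HXK1 2111 bp on 1458 bp, at PGI1 2027 bp on 1665 bp and at HXK2 1744 bp on 1461 bp. FBA1 had 1761 bp on 1080 bp and TPI1 1403 bp on 747 bp, so these short genes filled the smallest part of their peaks, 61.3% and 53.2%. PFK2 and PFK1 filled the largest, 96.3% and 93.0%. The median width of 2069 bp stood beside 762 bp for the 429 coding genes holding a summit, and beside 1001 bp for those of at least 747 bp. The rank correlation of gene length and width was 0.83 over the 8 genes and 0.37 over the 429, as a description of peaks from 1 library. These values are not a like comparison. All 8 genes lay wholly inside their peaks, so no width could be below the gene length, which favours a high value. Of the coding genes of at least 747 bp holding a summit, 29.0% were covered in this way.

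Past the annotated end, the peaks reached farther than before the start at each of the 8 genes. The same count was not made over the 429 coding genes holding a summit, so this is not shown to be particular to the 8. Whether the annotated ends take in untranslated regions was not examined. The reach past the end ran from 105 bp at PFK2 to 574 bp at HXK1, with a median of 316.5 bp. Upstream of the start it ran from 6 bp at PFK2 to 271 bp at FBA1, with a median of 97.5 bp. FBA1, TPI1 and GLK1, which had the 3 highest folds, also reached farthest upstream, 271, 269 and 253 bp. Beyond its gene the HXK1 peak ran into the end of RPN12, a proteasome gene facing it, the FBA1 peak into BLI1, and the GLK1 peak into GID7, for a subunit of a ubiquitin ligase that acts on gluconeogenic enzymes, and, on its upstream side, the overlapping reading frame YCL042W.

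All 8 summits lay inside the genes and none upstream of the start. The summit was 466 bp from the start at TPI1, 579 bp at GLK1, 789 bp at PFK2, 884 bp at FBA1, 914 bp at PGI1, 1010 bp at HXK2, 1235 bp at HXK1 and 2424 bp at PFK1. As a share of gene length this placed 6 summits downstream of the midpoint, where 60.8% of the 429 coding summits lay. HXK1 had its summit at 84.7% of its length, FBA1 at 81.9%, PFK1 at 81.8%, HXK2 at 69.2%, TPI1 at 62.4% and PGI1 at 54.9%. The exceptions were GLK1 at 38.6% and PFK2 at 27.4%.

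The isoenzyme and subunit genes differed in where the deposited summit lay. Among the hexose kinases, genes of similar length (1458 to 1503 bp), the summit of GLK1 lay upstream of the midpoint, and those of HXK2 and HXK1 downstream of it. The PFK2 summit lay upstream of the midpoint and the PFK1 summit downstream of it, in genes of 2880 and 2964 bp, while their folds overlapped within counting error. A summit is the single highest base of a broad low peak, and no interval for its position could be derived from the lists.

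Short genes had higher folds than long ones within the 8. The 747 and 1080 bp genes TPI1 and FBA1 had folds above 4, the genes of 1458 to 1665 bp ran from 1.64 to 2.83, and the 2880 and 2964 bp genes PFK2 and PFK1 had 1.59 and 1.49. The rank correlation of length and fold was -0.76 over the 8 genes. Over the 429 coding genes that held a summit it was -0.04, and over the 293 of them of at least 747 bp 0.09, so that the ordering by length was not seen across coding peaks of this library. The fold is a value at 1 base and is not a sum over the gene. Transcription of these genes was not measured here, and its part in the order was not tested.

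**Figure D3:**
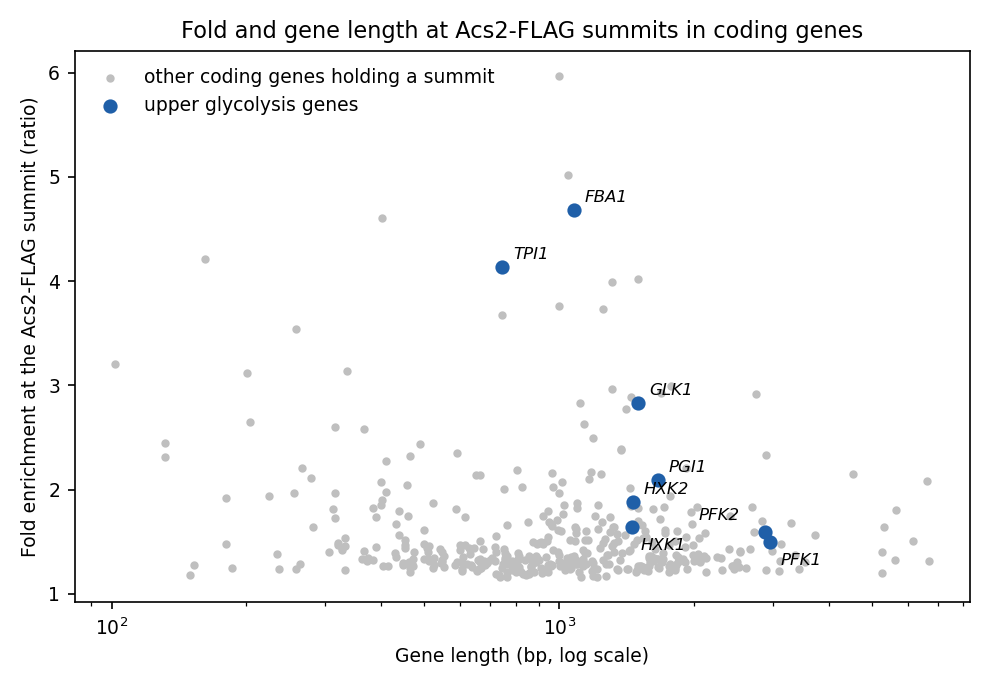
Fold enrichment at the Acs2-FLAG summit (ratio, vertical axis) against gene length (bp, log scale, horizontal axis), with 1 point for each of the 429 protein-coding genes that held the summit of their strongest peak; upper glycolysis genes are blue and named. Within the 8 genes the fold falls from FBA1 and TPI1 to PFK1 and PFK2, while over all 429 genes, the 8 included, the rank correlation was -0.04.

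FBA1 was the member that also had an untagged peak, and 0.847% of protein-coding genes lay at an Acs2-FLAG peak shared with the untagged list. The untagged fold was 1.61 (1.44 to 1.78), from 353 fragments over a background of 219.5, and ranked 5 of 20 untagged nuclear peaks outside the ribosomal DNA. The Acs2-FLAG fold was 2.91 times the untagged fold (2.59 to 3.28), and the part of the fold above 1 was 6.08 times as large. These ratios describe 2 libraries with separate backgrounds, and they are no test of the strains. The untagged peak was 1001 bp wide, from 326399 to 327399, and lay wholly inside the Acs2-FLAG peak of 1761 bp. It covered 91.9% of the gene, leaving out the 88 bp next to the start, and its summit lay 587 bp from the start, 297 bp from the Acs2-FLAG summit.

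The lack of an untagged peak at the other 7 genes has to be read against the depth of that library. Its lowest background was 198.4 fragments against 291.1 in the Acs2-FLAG library, and at that background a fold of 1.26 was needed to reach the lowest −log10 p of the list. If the part of the fold above 1 stood in the same proportion in both libraries as at FBA1, the untagged fold would be 1.52 at TPI1 and 1.30 at GLK1, both above that limit. For PGI1 it would be 1.18, for HXK2 1.14, for HXK1 1.11, for PFK2 1.10 and for PFK1 1.08, all below that limit. At TPI1 and GLK1 an untagged signal in exactly the proportion of FBA1 would have passed the limit at the lowest background. The untagged background at these genes is not known. The proportion rests on FBA1 alone, the member that passed the calling limit. Its counting error (untagged fold 1.44 to 1.78) was not carried through. GLK1, at 1.30 against 1.26, lies too near the limit for its missing peak to be read. At the other 5 genes a signal in the proportion of FBA1 would have stayed below the limit set at the lowest background. Their missing peaks cannot be read either.

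The genes around upper glycolysis were examined as 4 lists, each set against the 20.6% of protein-coding genes with a peak. Of the 11 lower glycolysis genes, from glyceraldehyde 3-phosphate dehydrogenase to pyruvate kinase, 8 had an Acs2-FLAG peak. All 8 peaks had the summit inside the gene and the gene wholly inside the peak, as in the upper segment. Their median fold of 3.75 stood beside 1.98 in upper glycolysis, and the ranges overlapped, from 1.97 to 5.97 and from 1.49 to 4.68. The highest were TDH3, for glyceraldehyde 3-phosphate dehydrogenase, with 5.97, CDC19, for pyruvate kinase, with 4.02, ENO2, for enolase, with 3.99, and the dehydrogenase isoenzyme gene TDH2 with 3.76. As for HXK1 and HXK2, how reads that match more than 1 isoenzyme gene were placed is not given. An untagged peak was present at 5 of the 11 genes, against 1 of 8 in the upper segment. The 3 genes without a peak were the minor isoenzyme genes GPM2, GPM3 and PYK2, named here after their values were seen.

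Of 11 genes for regulators and reverse reactions, 4 had an Acs2-FLAG peak and 0 an untagged one. FBP1, for fructose-1,6-bisphosphatase, which reverses the phosphofructokinase step, was met by a peak of 3.70 (3.49 to 3.93), whose summit lay in the tRNA gene YNCL0047W, 600 bp upstream of FBP1. TYE7 and GCR1, for activators of glycolytic genes, had 1.50 (1.36 to 1.64) and 1.31 (1.19 to 1.45), each with the summit inside the gene. EMI2, for a glucokinase-like protein that is the paralog of Glk1, had 1.27 (1.15 to 1.40), below the interval of GLK1. None of these 4 genes lay wholly inside its peak.

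Of 11 genes for hexose transport and glucose sensing, 1 had a peak, HXT3, for a low-affinity transporter, with 1.34 (1.22 to 1.46). At the branches from the hexose and triose phosphates, 16 of 23 genes had a peak, with a median fold of 1.71. The leading values were 3.16 at PGM1, 2.94 at GND2 and 2.49 at TAL1, for a phosphoglucomutase, a 6-phosphogluconate dehydrogenase and transaldolase. The PGM1 and GND2 peaks had their summits in the tRNA genes YNCK0007W and YNCG0046W, and the TAL1 peak, shared with the untagged list, in ILV5, for an enzyme of branched-chain amino acid synthesis. GPD1, for the glycerol 3-phosphate dehydrogenase that draws on the triose phosphates, had 2.17 (2.02 to 2.33), with the summit inside the gene and the gene wholly inside the peak. Over the 23 genes, 10 held the summit and 6 lay wholly inside their peak, against 8 and 8 of the 8 upper glycolysis genes. The shares over all protein-coding genes were 7.13% and 3.16%. The 6 include TAL1, which was covered by the peak with its summit in ILV5.

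**Figure D4:**
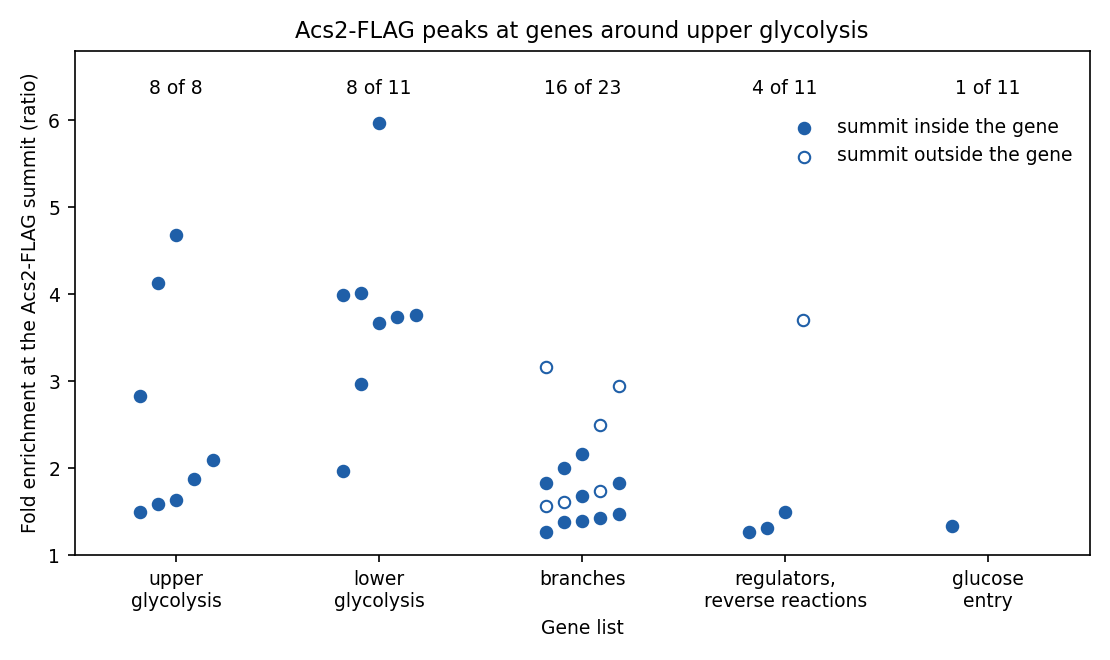
Fold enrichment at the Acs2-FLAG summit (ratio, vertical axis) of each gene with a peak in 5 gene lists (horizontal axis), with the number of genes with a peak written above; filled points have the summit inside the gene and open points outside it. The summits of all peaks in upper and lower glycolysis lie inside the genes, and the highest points of the branch and regulator lists are open.

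Outside upper and lower glycolysis, the coding genes nearest to each member were sought among 413 genes holding a summit, by distance of log2 folds over the 2 immunoprecipitates, with a fold of 1 where no peak was called. Nearest to FBA1 were ADH1, for alcohol dehydrogenase, with folds of 5.02 and 1.62 in the Acs2-FLAG and untagged lists, and CCW12, for a cell wall protein, with 4.61 and 1.73. GLK1 was followed by GLN1, for glutamine synthetase, at 2.83 and the serine hydroxymethyltransferase gene SHM2 at 2.77, and both of these genes also lay wholly inside their peaks. PGI1 was nearest to the ribosomal protein gene RPL3 at 2.10 and the pyrimidine synthesis gene URA2 at 2.08. HXK2 was nearest to NCE102, for a plasma membrane protein, at 1.88 and the ribosomal protein gene RPS9A at 1.87. HXK1 was nearest to NHP6A, for a chromatin protein, and PSA1, for GDP-mannose pyrophosphorylase, both at 1.64. PFK2 was nearest to ADE12, for adenylosuccinate synthase, and HSP104, for a protein disaggregase, both at 1.60. PFK1 was nearest to APE3, for a vacuolar aminopeptidase, at 1.49 and to TYE7 at 1.50. With lower glycolysis genes such as TDH2 (3.76) left out of the search, the nearest to TPI1 were the short reading frames YOR072W-B and YNL042W-B at 4.22 and 3.54. Their peaks met tRNA genes and were 537 and 572 bp wide, against 1403 bp at TPI1. The search used fold alone, and in width neither was close to TPI1. Of all these nearest genes, only NHP6A, APE3 and TYE7 did not lie wholly inside their peak.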

How the data were processed

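The 2 peak lists were used as deposited, 1 per immunoprecipitate. Per the file headers, each list pairs an immunoprecipitate with the same strain's input, and which served as background is not stated; they were taken as immunoprecipitate over input. Trimmomatic, BWA, Picard, MACS2 and the build R64 are named in the submitters' processing notes, without settings. Each peak has the authors' fold (a ratio), the authors' −log10 p and −log10 q, a summit position, and a deposited score that was not used. Groups came from the titles in the labels.

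Genes were matched to peaks by at least 1 shared bp, taking the strongest peak and reading strand from the systematic name. Fragment counts were solved from fold and p by the MACS2 relations, and were whole within 0.05 for 907 of 912 and 30 of 34 peaks. Ratios of folds have exact conditional binomial intervals at 95% confidence. In all, 4 isoenzyme and subunit pairs were compared, besides neighbours in the order. The solving and matching steps were tested on simulated data. With 1 library per group there is no test. The named genes are all members, up to 4 leading genes with a peak per other list, genes sharing a member's peak, and the 2 coding genes outside glycolysis nearest to each member. The members and lists were chosen with earlier results of these data known. No sequence was used, and the planned motif search was not run. Calculations used scipy 1.17.1, pandas 2.3.3 and numpy 2.4.6 under Python 3.11.15, and plots matplotlib 3.10.9.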

Additional observations from a re-analysis of the deposited data

How the results depend on the processing

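Of 52 recalculations, 44 were labelled as unchanged. A count had to stay within 1.5 times its value, and a fold or ratio within its counting interval. With varying backgrounds, the label depended instead on whether the interval of the ratio still did or did not exclude 1. None of the recalculations could have reversed a ratio, since taking the part of the fold above 1 keeps the order of the folds. Choosing the peak nearest to the start could change nothing either, as each gene had 1 peak. The same holds for requiring a −log10 q of at least 5, as the lowest were 13.97 (Acs2-FLAG) and 13.52 (untagged). Using the gene body alone, or requiring the summit in the region, could not change the member results. Each member peak overlapped its gene and had its summit inside it. The count of unchanged results therefore overstates how far they were tried. With the 500 bp upstream region alone, 0 members had an untagged peak, since the FBA1 peak starts inside the gene, and all 8 still had an Acs2-FLAG peak. With summits required to lie within 200 bp of each other, 0 members were shared. In the stronger part of each list, split at its median fold, 6 members remained, without PFK1 and PFK2, and the median fold was 2.46. With the part of the fold above 1 in place of the fold, the ratios were 6.08 between the lists at FBA1, 2.86 for GLK1 over HXK1, 2.08 for GLK1 over HXK2 and 1.37 for HXK2 over HXK1. With varying backgrounds, the ratio of 1.15 for HXK2 over HXK1 no longer had an interval apart from 1. The recalculations without FBA1, and of the genes wholly inside a peak, were chosen after seeing the data. The planned promoter motif search was not run. No paired analysis was possible because each group has 1 library. Read totals and the handling of duplicates were not known, and both limit what the intervals cover.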

Other observations

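Separate weaker peaks lay close to 3 of the broad peaks. At GLK1, an Acs2-FLAG peak with a fold of 1.53 ended 400 bp before the GLK1 peak and met PDI1, the gene for protein disulfide isomerase, which runs in the other direction. At FBA1, a peak of 520 bp with a fold of 1.48 lay 327 bp beyond the upstream edge of the FBA1 peak, in MPE1. At PGI1, a peak of 409 bp with a fold of 1.39 lay 442 bp beyond the upstream edge, at the short reading frame YBR196C-B. The peaks at TPI1, PFK2, PFK1, HXK1 and HXK2 stood alone, with 6077, 17049, 24463, 26065 and 30832 bp to the next Acs2-FLAG peak.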
